A study of Arabidopsis thaliana with 6 samples.

Results

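Arabidopsis genes of chemical detoxification and conjugation were described: the tau-class glutathione transferase genes GSTU4, GSTU22 and GSTU25 and the UDP-glycosyltransferase genes UGT73B4 and UGT76B1. They are 5 of the 13357 genes read from the arrays and were chosen by their differences in signal between estradiol (EST) and mock treatment on these arrays, so these differences are given as a description and were not tested. All 6 Affymetrix ATH1 arrays came from GRF9-IOE plants, in which the transcription factor gene GROWTH-REGULATING FACTOR 9 stands under an EST-inducible promoter. Seedlings were 2 weeks old, had grown on MS plates and were given 10 µM EST or the solvent ethanol (mock, 0.1% in the sample descriptions) for 3 h or 4 h. Mature leaves were detached from soil-grown plants (40 days old in the sample descriptions) and given the same treatments for 6 h. The methods of the study give a younger age for the leaf plants and more solvent. Each of the 6 conditions had 1 array. Mock plants carried the same transgene, and plants without it were not put on arrays with EST, so the effects of EST and of GRF9 cannot be told apart here. GRF9 is not represented on the array, and its induction could not be read from these signals.

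Tau-class glutathione transferases join glutathione to reactive or foreign molecules, and the conjugates are then moved into the vacuole. UDP-glycosyltransferases (UGTs) transfer a sugar from a UDP-sugar to a small molecule such as a hormone, a flavonoid or a foreign compound, which changes its activity, solubility or storage. Genes of both families are widely known to respond to herbicides, other chemicals and pathogens. Among those described here, GSTU25 and UGT73B4 encode enzymes known to act on the explosive TNT or its breakdown products, and UGT76B1 glycosylates isoleucic acid and salicylic acid in defence.

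The values are log2 signals of 1 probe set per gene, normalized between arrays by the authors with GCRMA, and their lowest value was 2.15 on each array. A signal at this minimum can show a later increase but not a decrease. The array annotation named the probe sets of GSTU22 (AT1G78340, 260803_at), GSTU25 (AT1G17180, 262517_at), UGT73B4 (AT2G15490, 265501_at) and UGT76B1 (AT3G11340, 256252_at). It did not list the probe set of GSTU4 (AT2G29460), which was taken to be 266267_at, because its 3 differences equal those that the table of the study gives for the gene within 2e-05. The EST minus mock differences of GSTU4 therefore equal that table by construction, while its 6 signals do not come from it. Array medians lay between 5.16 and 5.33, and 22.8% to 24.3% of probe sets were at the lowest value. Pearson correlations over probe sets were 0.995 to 0.997 among seedling arrays, 0.993 between the leaf arrays and 0.910 to 0.926 between seedling and leaf arrays. LHCB4.1, a light-harvesting protein of photosystem II, had log2 signals of 12.83 to 13.31 on the 6 arrays, so the transcript of this leaf protein was present in all samples. For PYK10, which encodes a root β-glucosidase, log2 signals were 12.06 to 12.27 in seedlings and 2.17 in both leaf samples.

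With EST, the signals of GSTU4, GSTU25, UGT73B4 and UGT76B1 exceeded those with mock by 2-fold or more in seedlings at 3 h and again at 4 h (4 of the 5 genes). The remaining gene, GSTU22, did so in detached leaves only (1 of the 5). Over all 13357 genes, 1.14% were higher by this much at 3 h, 0.621% at 4 h, 0.337% at both (45 genes) and 1.02% in leaves (136 genes). The choice of the genes used these differences, so nothing is read from the share. With EST arrays set against the mock array of the other time point, GSTU4, UGT73B4 and UGT76B1 stayed at least 2-fold higher in both comparisons and GSTU25 did not. For UGT73B4 this was no check, because its mock signals were identical and near the minimum. In bulk tissue, a change in RNA per cell cannot be told apart from a change in the number of cells that hold it.

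**Figure D1:**
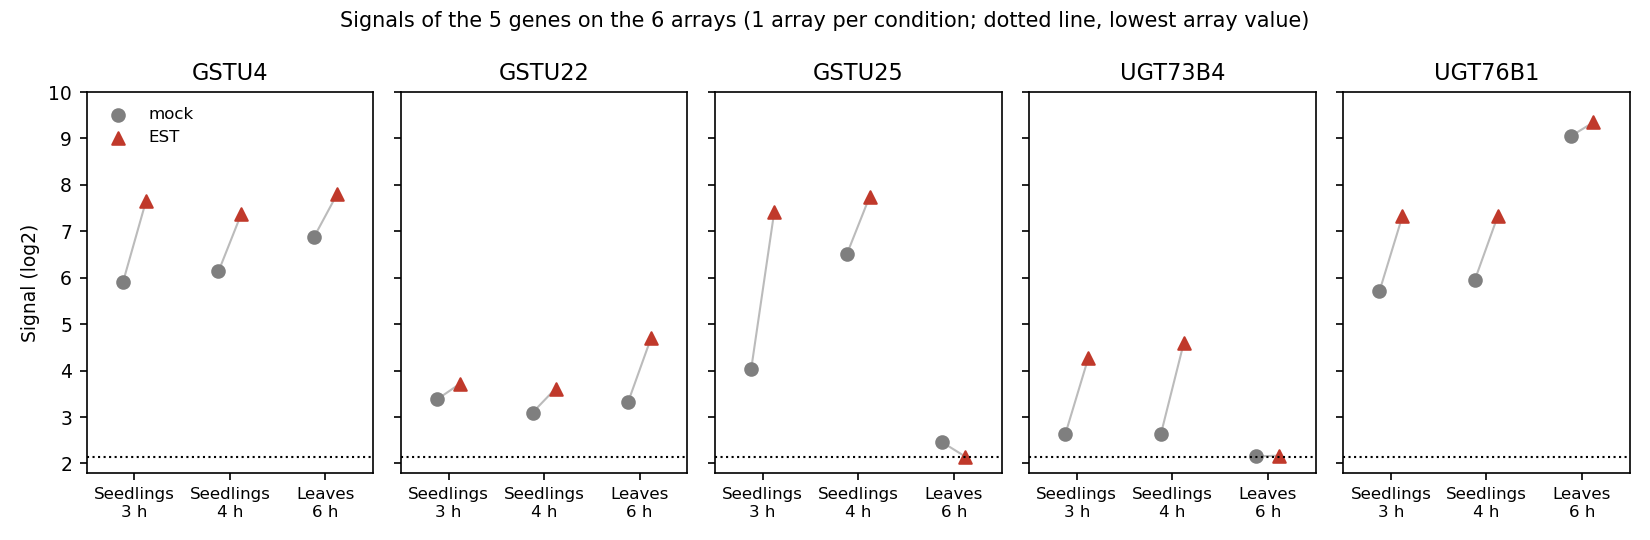
Log2 signal of each of the 5 genes (1 panel each) on the 6 arrays, 1 point per array, for seedlings at 3 h and 4 h and detached leaves at 6 h, mock and EST. The dotted line is the array minimum of 2.15. GSTU25 was low in mock seedlings at 3 h and high on the other 3 seedling arrays, and both GSTU25 and UGT73B4 lay at or within 0.31 of the minimum in leaves.

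GSTU4 encodes a glutathione transferase of the tau class. Its log2 signal was 5.90 in mock and 7.64 in EST seedlings at 3 h, 6.14 in mock and 7.38 in EST seedlings at 4 h, and 6.88 in mock and 7.79 in EST leaves. Both EST seedling arrays were above both mock seedling arrays, and the EST leaf array was the highest of the 6. The EST minus mock difference came to 1.74 (3 h), 1.24 (4 h) and 0.92 (leaves) on the log2 scale, which correspond to 3.34-fold, 2.37-fold and 1.89-fold. GSTU4 was thus higher with EST in all 3 pairs, although in leaves by less than the 2-fold counted here. The mock arrays of 4 h and 3 h differed by 0.23 for this gene, and the EST arrays by −0.26. Exchanging the mock arrays gave log2 differences of 1.51 at 3 h and 1.48 at 4 h, so GSTU4 was higher by more than 2-fold under either pairing.

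UGT76B1, the enzyme that conjugates isoleucic acid and salicylic acid, had log2 signals of 5.71 in mock and 7.32 in EST seedlings at 3 h and of 5.96 and 7.34 at 4 h. In leaves the signal was 9.04 with mock and 9.35 with EST. Both EST seedling arrays were above both mock seedling arrays, and both leaf arrays were above all seedling arrays, as for 23.6% of all genes. The log2 difference was 1.61 at 3 h (3.06-fold), 1.38 at 4 h (2.60-fold) and 0.30 in leaves (1.23-fold). The leaf difference was near the 0.25 by which its mock signals differed between 4 h and 3 h in seedlings. With exchanged mock arrays the seedling differences were 1.36 and 1.63, so both remained above 2-fold.

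UGT73B4 had log2 signals of 2.63 in mock seedlings at both time points, 4.27 in EST seedlings at 3 h and 4.60 in EST seedlings at 4 h. In leaves it was at 2.15 with mock and 2.17 with EST, at or next to the minimum. Its log2 difference was 1.64 at 3 h (3.11-fold), 1.96 at 4 h (3.90-fold) and 0.02 in leaves (1.01-fold). The mock signals were identical at 3 h and 4 h, and so exchanging the mock arrays could not alter the differences and was no check for this gene. Mock signals equal within 1e-06 and above the minimum were found for 1059 of 13357 genes (7.93%). The mock value of UGT73B4 stood 0.48 above the minimum and was not shown to be above background, so its folds rest on a weak mock signal and are not exact.

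GSTU25 gave the largest difference of the 5 genes and the least steady one. Its log2 signal was 4.04 in mock and 7.41 in EST seedlings at 3 h, and 6.50 in mock and 7.75 in EST seedlings at 4 h. In leaves it was 2.46 with mock and 2.15, the array minimum, with EST. Both EST seedling arrays were above both mock seedling arrays, but the mock arrays themselves lay 2.46 apart. Taken with its sign as 4 h minus 3 h, that difference between mock arrays was the highest of all 13357 genes. Its standard deviation over these genes was 0.25. Of all genes, 0.419% were 2-fold or more higher in the mock array of 4 h than in that of 3 h (0.292% were as much lower). The other 4 genes differed by −0.28 to 0.25 between the mock arrays.

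The size of the GSTU25 difference therefore depended on the mock array used. The paired log2 difference was 3.37 at 3 h (10.3-fold, rank 3 among all genes) and 1.25 at 4 h (2.37-fold). After the exchange it was 0.90 at 3 h (1.87-fold) and 3.71 at 4 h (13.1-fold, the highest among all genes). Set against the mean of both mock arrays, GSTU25 was higher by 2.14 at 3 h and 2.48 at 4 h, and 0.404% of all genes passed 2-fold at both times on this basis, GSTU4, GSTU25, UGT73B4 and UGT76B1 among them. The EST arrays of 3 h and 4 h differed by 0.34, so most of the variation between these values came from the mock arrays. In leaves the log2 difference was −0.31 (0.808-fold), opposite in sign to both seedling values, with the EST array at the minimum.

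GSTU22, also a tau-class transferase, had low signals on all seedling arrays, with 3.38 in mock and 3.72 in EST at 3 h and 3.10 in mock and 3.61 in EST at 4 h. In leaves the log2 signal was 3.33 with mock and 4.70 with EST, and the EST leaf array stood above the other 5 arrays. The log2 difference was 0.34 at 3 h (1.26-fold), 0.52 at 4 h (1.43-fold) and 1.38 in leaves (2.60-fold). Both EST seedling arrays were above both mock arrays, but the mock arrays differed by −0.28, which is close to the 3 h difference. After the exchange the seedling differences were 0.62 and 0.23. The leaf value had no other leaf pair to be set against.

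**Figure D2:**
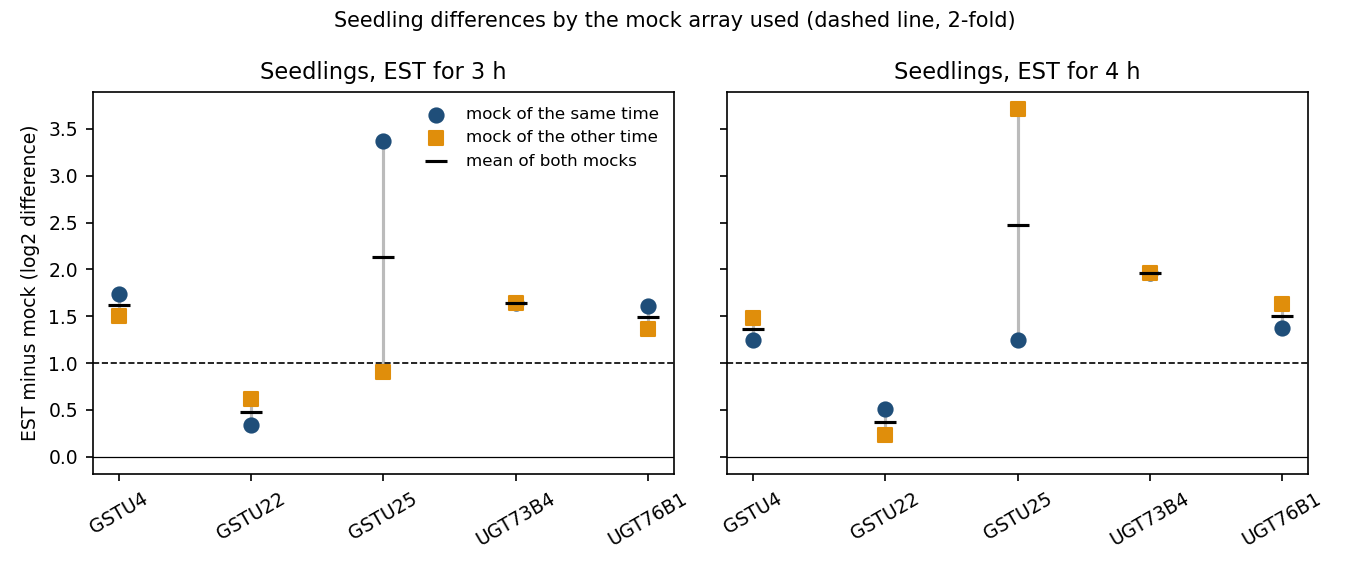
EST minus mock difference of log2 signals for each gene at 3 h and 4 h in seedlings, with the mock array of the same time point (paired), with the mock array of the other time point (exchanged) and with the mean of both. The points of UGT73B4 coincide because its mock signals were identical, those of GSTU4 and UGT76B1 stay above 1 (2-fold), and those of GSTU25 range from 0.90 to 3.71.

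With exchanged mock arrays, 36 of the 13357 genes (0.270%) passed 2-fold at both 3 h and 4 h, and 30 (0.225%) did so under either pairing, GSTU4, UGT73B4 and UGT76B1 among them. Over the 4 seedling arrays, the Pearson correlations between pairs of the 5 genes ranged from 0.445 (GSTU22 and GSTU25) to 0.992 (GSTU4 and UGT76B1). Over all 6 arrays they ranged from −0.565 (GSTU25 and UGT76B1) to 0.874 (GSTU25 and UGT73B4). These correlations are descriptive and share the same arrays and the choice of genes by their response to EST.

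Differences of 2-fold or more with EST were rare among the related genes and over all genes alike (1.14% at 3 h, 0.621% at 4 h and 1.02% in leaves), and nothing particular to the relatives is read from their counts. Measured here means present among the 13357 genes. Of 27 tau-class genes named so in RefSeq, 12 were measured, including 3 that stayed within 1 log2 unit of the minimum on all arrays. GSTU4 is counted among these 12, while GSTU9, which the array annotation does not list either, is left out and given further below. Among the 9 tau-class genes other than those described above, 0 were at least 2-fold higher with EST at 3 h or at 4 h, 1 in leaves, and 0 were at least 2-fold lower in any pair. Their median difference was 0 in all 3 pairs, as it was over all genes. GSTU16 had the largest mean seedling difference of the 9, with 0.66 at 3 h and 0.38 at 4 h, but its mock arrays differed by 0.75. GSTU18 was the one higher in leaves, with log2 signals of 5.82 for mock and 6.87 for EST, a difference of 1.05. In seedlings GSTU27 differed by 0.35 and 0.18. GSTF4, the only one of 12 phi-class genes measured, was higher by 1.14 at 3 h and by 0.08 at 4 h, and its leaf difference was −0.32. Its mock signals were low and differed by 0.65 (2.83 at 3 h and 3.47 at 4 h). After the exchange its seedling differences were 0.49 and 0.72, both under 2-fold.

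Of 58 UGT genes named so in RefSeq, 47 were measured, including 14 within 1 log2 unit of the minimum on all arrays. Among the 45 other than UGT73B4 and UGT76B1, 1 was at least 2-fold higher with EST at 3 h, 0 at 4 h and 0 in leaves, and 0 were at least 2-fold lower in any pair. The one at 3 h was UGT72E1, which glucosylates lignin precursors, with log2 signals of 7.05 in mock and 8.05 in EST at 3 h, where 4 h gave a difference of 0.15 and leaves one of −0.61. Its mock arrays differed by 0.78, and after their exchange it differed by 0.22 at 3 h and 0.94 at 4 h, both under 2-fold. UGT76E12, of the same UGT76 group as UGT76B1, was higher by 0.77 and 0.61 in seedlings and by 0.03 in leaves. UGT87A2 was higher by 0.54 and 0.41 in seedlings, and UGT78D3, of the flavonol-glycosylating UGT78D group, was lower, with differences of −0.64 and −0.32. UGT76C2, a cytokinin glucosyltransferase, had the most negative leaf value of those named, −0.90.

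**Figure D3:**
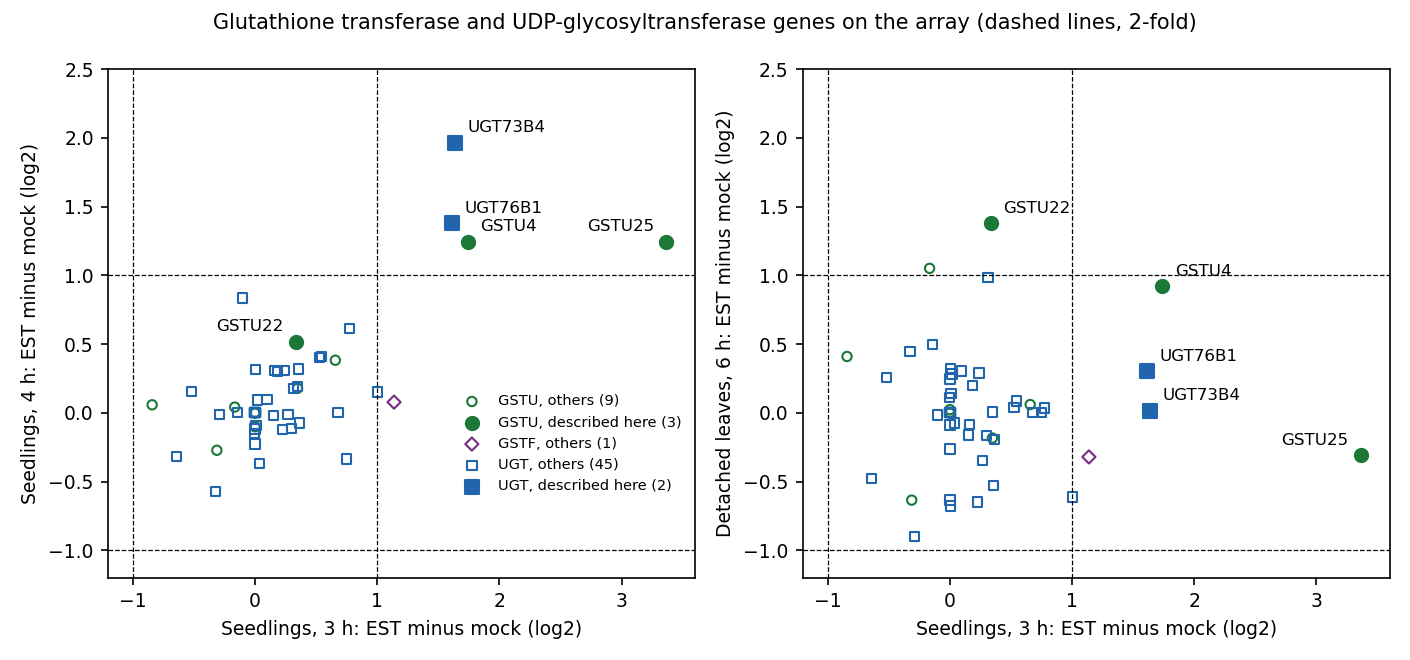
EST minus mock difference of log2 signals for the measured GSTU, GSTF and UGT genes, at 4 h (left) and in detached leaves at 6 h (right) against 3 h; filled symbols are the 5 genes described and dashed lines mark 2-fold. GSTU4, GSTU25, UGT73B4 and UGT76B1 lie beyond 2-fold on both axes of the left panel, where 0 of the 9 other GSTU, 1 GSTF and 45 other UGT genes do, and GSTU22 and GSTU18 lie above the upper line of the right panel.

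Several tau-class genes stand beside each other in the genome, and a probe set may detect a close copy. GSTU4 lies in a run with GSTU1, GSTU2, GSTU3, GSTU5, GSTU6 and GSTU7, which were not analysed here, so it could not be set beside these genes. GSTU25 lies between GSTU24, not analysed here, and GSTU26. GSTU26 had log2 signals of 5.04 in mock and 4.20 in EST seedlings at 3 h, 4.20 and 4.25 at 4 h, and 2.54 and 2.95 in leaves. Its differences were −0.84, 0.06 and 0.41, unlike those of its neighbour GSTU25 in sign at 3 h and in leaves. The mock arrays of GSTU26 differed by −0.84, and after their exchange its seedling differences were 0 at 3 h and −0.78 at 4 h. The time point at which the signs differed thus depended on the mock array used. In leaves the signals of GSTU25 were at or near the minimum, so little is read from the sign there.

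GSTU22 lies among GSTU19 (not analysed here), GSTU20, GSTU21 and GSTU23. GSTU21 was at the minimum on all 6 arrays, and GSTU23 stayed between 3.32 and 3.45. GSTU20 had log2 signals of 12.42 to 12.80 in seedlings and of 9.34 in mock and 8.71 in EST leaves, with EST minus mock differences of −0.31, −0.27 and −0.63. The leaf difference of GSTU22 thus stood beside one of opposite sign in GSTU20. UGT85A4, the nearest UGT gene to GSTU22, differed by 0.35, 0.19 and 0.01.

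UGT73B4 lies next to UGT73B5, a close relative also known from pathogen and TNT responses. UGT73B5 had log2 signals of 5.85 in mock and 6.16 in EST seedlings at 3 h, 6.09 and 6.27 at 4 h, and 4.28 and 5.26 in leaves. Its differences were 0.31, 0.18 and 0.99, whereas UGT73B4 differed by 1.64, 1.96 and 0.02. So of these adjacent genes UGT73B4 had the larger difference in seedlings and UGT73B5 in leaves. A probe set shared by UGT73B2 and UGT73B3 gave 8.45 in mock and 10.00 in EST seedlings at 3 h, 9.27 and 9.83 at 4 h, and 8.78 and 9.34 in leaves, but its signal cannot be assigned to either gene. Its difference was 1.55 at 3 h and 0.55 at 4 h, and 0.73 and 1.38 after the exchange of mock arrays.

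GSTU9, chosen after its values were seen and named like GSTU4 through the table of the study, was a further tau-class gene higher with EST in seedlings. Its log2 signals were 3.42 in mock and 4.84 in EST seedlings at 3 h, 3.61 and 4.85 at 4 h, and 2.44 and 2.51 in leaves. The differences of 1.42 and 1.23 became 1.23 and 1.43 after the exchange, so GSTU9 stayed above 2-fold under either pairing, while in leaves it differed by 0.07.

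Few other genes of detoxification were named by the annotation used here. Of a list of 25 genes known from the response to foreign chemicals, 7 were measured and 3 of these were not among the 5 described. ChlADR (AT3G04000), which encodes a chloroplast aldehyde reductase that removes reactive carbonyls, had EST minus mock differences of 1.12 (3 h), 0.67 (4 h) and 1.04 (leaves). Its mock arrays differed by 0.19, and after the exchange the seedling differences were 0.94 and 0.86. AT5G61820 differed by 0.82, 0.30 and 0.15, beside a difference of 0.63 between its mock arrays, and UGT73B5 is given above. GR1 and GR2, the glutathione reductases that regenerate reduced glutathione, were the 2 measured of 12 genes of glutathione synthesis and reduction. GR1 differed by 0.34, 0.18 and 0.21 and GR2 by −0.08, 0.05 and 0.14, all under 2-fold. Of the lists of TGA transcription factors, salicylic acid markers and wound or jasmonate markers, 0 genes were among those the annotation used here named, so these pathways could not be set beside UGT76B1 and the transferases.

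Leaf and seedling levels of the 5 genes were then compared over all 6 arrays with limma, fitted to all 13357 genes with a term for treatment. Leaves and seedlings also differed in age, growth medium, day length, detachment and hours of treatment, and these cannot be told apart from the tissue. The fit treats seedling arrays of different time points as replicates, with treatment as a term that is the same for both tissues. Where EST and mock differed unequally in the tissues, as for UGT73B4 (1.64 and 1.96 in seedlings, 0.02 in leaves), this goes into the SE. The SE, intervals and p-values are therefore not a measure of the spread between like arrays alone. UGT76B1 passed the test and was higher in leaves, by 2.61 on the log2 scale (SE 0.34, 95% interval 1.61 to 3.62, adjusted p = 0.0135 by limma with Benjamini-Hochberg adjustment). Higher signals in leaves were called for 17.0% of all genes (2270) and lower ones for 15.8% (2107), so 1 of the 5 genes is no large share. The difference was 3.21 among mock arrays and 2.02 among EST arrays, and the lowest leaf array stood 1.71 above the highest seedling array. The call of UGT76B1 was lost in the fits without the seedling arrays of EST 3 h, mock 4 h or EST 4 h (adjusted p by limma of 0.0545, 0.0669 and 0.0542), with differences of 2.58 to 2.70.

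GSTU25 and UGT73B4 were lower on both leaf arrays than on any seedling array, as were 23.4% of all genes, but neither passed the test. The log2 difference of GSTU25 was −4.12 (SE 1.09, 95% interval −7.39 to −0.85, adjusted p = 0.0738 by limma), and that of UGT73B4 was −1.37 (SE 0.50, 95% interval −2.86 to 0.12, adjusted p = 0.148 by limma). For UGT73B4 the difference was −0.48 among mock arrays and −2.26 among EST arrays, so most of it lay in the EST signals by which the gene was chosen. Without the mock seedling array of 3 h, in which GSTU25 was low, its difference was −4.83 with an adjusted p of 0.0309 by limma. That array was the seedling array nearest to the leaf signals of GSTU25. GSTU25 did not pass without the seedling arrays of EST 3 h, mock 4 h or EST 4 h (adjusted p by limma of 0.201, 0.194 and 0.198). For GSTU25 the difference was −2.81 among mock arrays and −5.43 among EST arrays. Its estimate of −4.12 thus also holds the EST signals by which the gene was chosen. The leaf signals of both genes were at or near the minimum, which limits how large a difference could be measured.

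PYK10 differed between seedlings and leaves in the same direction as GSTU25 and UGT73B4. The other 5 measured genes of a list of 12 root genes stayed within 1 log2 unit of the minimum on all arrays. The part of roots in the seedling signals was not tested. The leaf-ageing gene SWEET15 (SAG29), a sugar transporter and the only measured gene of 9 on that list, was also lower in leaves, with signals of 6.39 in mock and 7.38 in EST seedlings at 3 h, 6.49 and 6.33 at 4 h, and 2.83 and 2.15 in leaves.

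GSTU4 and GSTU22 did not pass the test for a difference between leaves and seedlings. The log2 difference of GSTU4 was 0.57 (SE 0.19, 95% interval −0.01 to 1.15, adjusted p = 0.131 by limma), and the mock leaf array lay between the mock and the EST seedling arrays. That of GSTU22 was 0.56 (SE 0.28, 95% interval −0.27 to 1.39, adjusted p = 0.270 by limma). The mock leaf signal of GSTU22 lay within the range of the seedling arrays, with a difference of 0.09 among mock arrays against 1.04 among EST arrays. On the log2 scale, the order of the leaf minus seedling differences was thus UGT76B1, GSTU4, GSTU22, UGT73B4 and GSTU25, and the intervals of GSTU4 and GSTU22 overlap over most of their length.

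**Figure D4:**
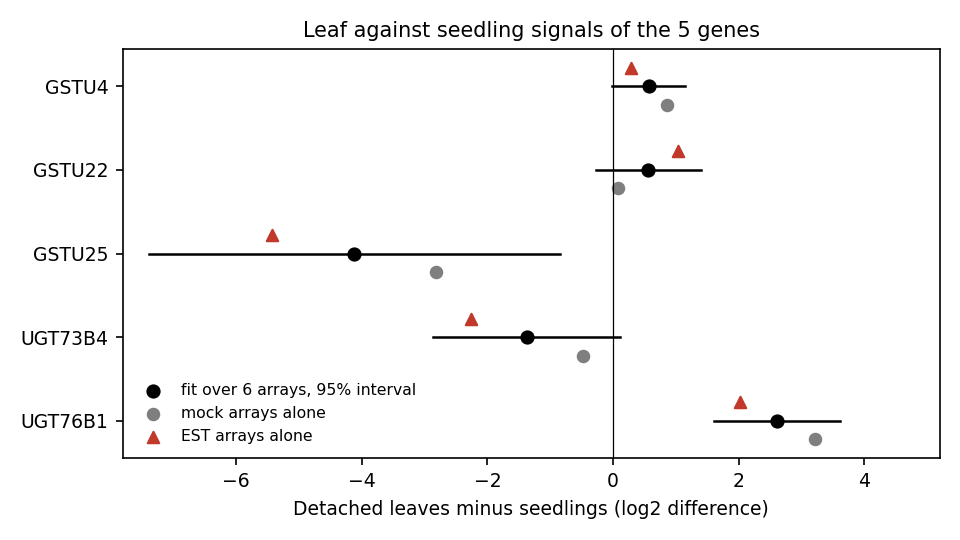
Leaf minus seedling difference of log2 signals for each gene, with the limma estimate over 6 arrays and its 95% interval, and the difference within mock and within EST arrays (1 leaf array against the mean of 2 seedling arrays). UGT76B1 lies at 2.61 with an interval above 0, GSTU4, GSTU22 and UGT73B4 have intervals that include 0, and the interval of GSTU25 is the widest, from −7.39 to −0.85.

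Genes of these families were called between leaves and seedlings about as often as other genes, beside 17.0% higher and 15.8% lower in leaves over all genes. Of the 12 measured tau-class genes, 1 was higher and 2 were lower in leaves by the same limma test. GSTU16 was higher by 1.73 (adjusted p = 0.0323), GSTU20 was lower by 3.58 (adjusted p = 0.00105), and GSTU26, the neighbour of GSTU25, was lower by 1.68 on the log2 scale (adjusted p = 0.0441). Of the 47 UGT genes, 8 were higher and 10 lower in leaves. Among these, UGT73B5, the neighbour of UGT73B4, was lower by 1.32 (adjusted p = 0.0248) and UGT76E12 lower by 1.11 (adjusted p = 0.0244) on the log2 scale. UGT78D1 and UGT78D2, which glycosylate flavonols, were lower by 3.86 and 3.72 (adjusted p = 0.000476 and 0.00366 by limma), and UGT87A2 was higher by 1.44 (adjusted p = 0.00514). The 8 higher genes also held UGT76B1, UGT85A5 (2.33, adjusted p = 0.00114 by limma), UGT71B6 (1.49, 0.00278) and UGT71C5 (1.12, 0.00100).

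The genes whose signals went most closely with each of the 5 were taken by Pearson correlation over the 6 arrays, among 4532 genes whose log2 signals ranged over at least 1. For UGT76B1 they were AT5G62280, AT5G12010 and AT2G27080 (r of 0.999, 0.998 and 0.998), and for GSTU25 they were AT1G63220, AT3G13650 and the calmodulin-like gene CML38 (0.998, 0.995 and 0.991). For UGT73B4 they were the chitinase gene ChiC, IQD19 and AT4G39320 (0.990, 0.987 and 0.975). For GSTU4 they were AT1G74010, AT1G63840 and AT2G47550 (0.978, 0.975 and 0.971), and for GSTU22 the subtilase gene SBT3.3, AT1G32610 and AT2G02160 (0.961, 0.953 and 0.952). AT1G74010 differed between EST and mock by 2.38, 2.29 and 1.43 in the 3 pairs, more than GSTU4 in each. AT3G13650, like GSTU25, had a lower mock signal at 3 h (3.48) than at 4 h (4.70), and its leaf signal was 2.69 with either treatment. SBT3.3 differed by 1.11 in leaves and by 0.11 and 0.67 in seedlings. With 6 arrays that share tissue and treatment, such correlations describe the pattern only.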

How the data were processed

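Each of the 6 Affymetrix ATH1 arrays has a deposited log2 signal for every probe set, which the authors normalized with GCRMA (version not given in the sources used here). These were used as deposited. Of 22746 probe sets other than controls, 13513 were annotated with 1 gene, 503 with several and 8730 were unlisted. For 146 genes with several probe sets the one of highest mean signal was kept, which with GSTU4 gave 13357 genes, of which 13287 matched a RefSeq gene (TAIR10.1, used for names and neighbours).

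EST minus mock differences were taken per pair, with exchanged and with averaged mock arrays, and counted at 2-fold. Leaves were compared with seedlings in limma 3.58.1 (R 4.3.3) with tissue and treatment as terms, over all genes, with Benjamini-Hochberg adjustment at 0.05. The fit was tested on simulated data. Samples of 1 condition had no replicate, and the number of arrays limits the precision.

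The 5 genes and the lists were chosen with earlier results of these data known. Further genes named were neighbours of the 5 within 5 gene models or 30 kb, those of largest seedling (4) or leaf (2) difference in each family or list, and the 3 most alike in pattern. Named outside these rules were GSTU9 and the UGT probe sets shared by several genes. So were, for their leaf and seedling levels, UGT78D1, UGT78D2, UGT85A5, UGT71B6 and UGT71C5. Alternatives tried were a minimum log2 signal of 6, median centring, quantile normalization, folds of 1.5 and 3, other covariates, mock arrays only, all probe sets, and each array left out. Figures were drawn with matplotlib 3.10.9.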

Additional observations from a re-analysis of the deposited data

Results flagged for a closer look

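GSTU25 was higher with EST in both seedling pairs and lower in the leaf pair, where EST minus mock was −0.31 on the log2 scale. The seedling differences were 3.37 and 1.25, and the sign was opposite in leaves. This difference between tissues was not tested, there was 1 array per condition, and the EST leaf signal was at the array minimum. The mock leaf signal stood only 0.31 above the minimum, so no larger decrease could have been seen.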

How the results depend on the processing

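The count of 4 genes past 2-fold in both seedling pairs was 3 with exchanged mock arrays, 3 with a signal of at least 6 required and 1 at 3-fold. The 1 gene in leaves became 2 at 1.5-fold, 0 at 3-fold and 0 with a signal of at least 6 required. Genes higher and lower in leaves numbered 888 and 651 with mock arrays only, 4318 and 4151 over all probe sets, and 1457 to 1810 and 1373 to 1634 with 1 array left out.

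Centring each array on its median moved the median leaf minus seedling difference of all genes by 0.10 and brought GSTU4 (0.67, adjusted p = 0.0143 by limma), GSTU25 (−4.02, 0.00692) and UGT73B4 (−1.27, 0.0338) past the threshold. The filter at a signal of 6 did so for GSTU4 (0.57, adjusted p = 0.0214 by limma). After centring, the differences of GSTU25 and UGT73B4 were smaller in size than in the main fit (−4.12 and −1.37). The weight that limma gave to the spread over genes was larger in both settings. Its prior degrees of freedom were 0.37 in the main fit, 3.04 with centring and 3.53 with the filter. With mock arrays only, UGT76B1 was lost (3.21, 0.0851) and UGT73B4 passed (−0.48, 0.00893), which rests on identical mock values. Leaving out 1 array gave 0.28 to 0.86 for GSTU4, 0.09 to 1.04 for GSTU22, −5.43 to −2.81 for GSTU25, −2.26 to −0.48 for UGT73B4 and 2.02 to 3.21 for UGT76B1. UGT73B4 passed without the mock leaf array (adjusted p = 0.0240 by limma). Fits without a leaf array assume that the other leaf array varies like the seedling arrays. No direction reversed under any of these settings. The EST and mock arrays of one time point, taken as a pair in a random block, changed the call of none of the 5 genes. Signals near the minimum limit what GSTU25 and UGT73B4 can show in leaves.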
